A study of Mus musculus with 13 samples.

Results

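Glycolysis and lactate handling are described through 10 genes, namely Slc2a1, Hk1, Hk2, Pfkp, Aldoa, Pgk1, Eno1, Pkm, Ldha and Slc16a3, which were found by their names in a table of 53465 gene rows. They matched 11 rows, because Aldoa is listed under 2 identifiers, and all 11 rows passed the filter on low values that 17277 rows passed. Bulk RNA was sequenced from 10 MP EPO-GEMM tumors and 3 WT ovaries. Each MP tumor grew in a WT C57BL/6 female whose ovary was electroporated at 8 to 12 wk of age with plasmids for a MYC transposon, a transposase, and Cas9 with an sgRNA against Trp53 (labelled genotype Myc;p53-/-), and the 3 WT ovaries carry genotype WT and the same protocol text, with its age of 8 to 12 wk. The age of either group when tissue was taken is not given in the sources used here. Both groups are labelled non-treated. The electroporation does not select a cell type, the host cells within a tumor keep WT Trp53, and no tumor-free electroporated ovary is among these samples, so the surgery and the tumor cannot be told apart.

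Glycolysis splits glucose into pyruvate in the cytosol and yields ATP and NADH. Lactate dehydrogenase regenerates NAD+ by reducing pyruvate to lactate, which leaves the cell through monocarboxylate carriers, and many tumors run this route even where oxygen is present. In the normal ovary, granulosa cells are known to break down glucose and to pass pyruvate to the oocyte. MYC binds the E-box CACGTG, and hypoxia-inducible factors bind ACGTG or GCGTG, in the promoters of many genes of this pathway.

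Read totals worked back from the table ran from 31445004 to 64013840 in WT ovaries and from 3892690 to 19906507 in MP tumors, so values are less precise in the tumors. The library names carry 1 of 3 numbers, whose meaning the labels do not give. All WT ovaries and MP tumors 1 to 3 share a number (name set 1), as do MP tumors 4 to 6 (name set 2) and MP tumors 7 to 10 (name set 3). Trp53 lay between 80.7 and 85.4 TPM (a transcript level per length that sums to 1000000 in each library) in WT ovaries and between 4.30 and 26.0 TPM in MP tumors 1 to 9, but at 187 TPM in the library labelled MP tumor 10. The mouse Myc gene lay between 126 and 129 TPM in WT ovaries and at 7.09 (lowest), 90.5 (median) and 419 TPM (highest) in MP tumors. Its level was below each WT ovary in 6 tumors and above in 4 (log2 fold change -0.67, limma adjusted P = 0.654). In MP tumor 2, the 10 most abundant genes held 55.1% of all TPM, against 7.92% to 20.6% in the other tumors. Over all genes tested with limma on log2(TPM + 1), the median log2 fold change (MP tumors minus WT ovaries) was -0.58, and it was -0.02 with median-of-ratios scaling and -1.19 among the libraries of name set 1 alone. The change of each gene is to be read against these medians. In bulk tissue, fewer cells of a type and less RNA per cell cannot be told apart.

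Ldha, Slc16a3, Eno1 and Pgk1 rose in MP tumors, and 0 of the 11 rows fell (limma, Benjamini-Hochberg adjusted P under 0.05 over all genes tested). These are genes of the lower, ATP-yielding steps and of lactate formation and export. Against the 4 of 11 rows that rose, 2.51% of all genes tested rose and 14.3% fell. At an unadjusted P under 0.05, 5 rows were higher, where 5.63% of all genes were, and 1, Hk1, was lower, where 27.4% were. By limma-voom at an adjusted P under 0.05 the same counts were 5 and 1, where 10.9% of all genes were higher and 23.4% lower. The median log2 fold change was 0.61 over the 11 rows and 0.54 over the 10 genes without the short Aldoa row, beside -0.58 over all genes tested. The summed TPM of the members made up 0.195% to 0.213% of all TPM in WT ovaries, and 0.161% (MP tumor 2), 0.456% (median) and 0.768% (MP tumor 6) in MP tumors. With median-of-ratios scaling, Pkm was called as well, and 5 rows rose where 7.39% of all genes did. These counts depend on the libraries compared: within name set 1, only Ldha and Pgk1 were higher and Hk1, Hk2 and Pfkp were lower. There, 6.44% of all genes were higher and 57.3% lower.

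**Figure D1:**
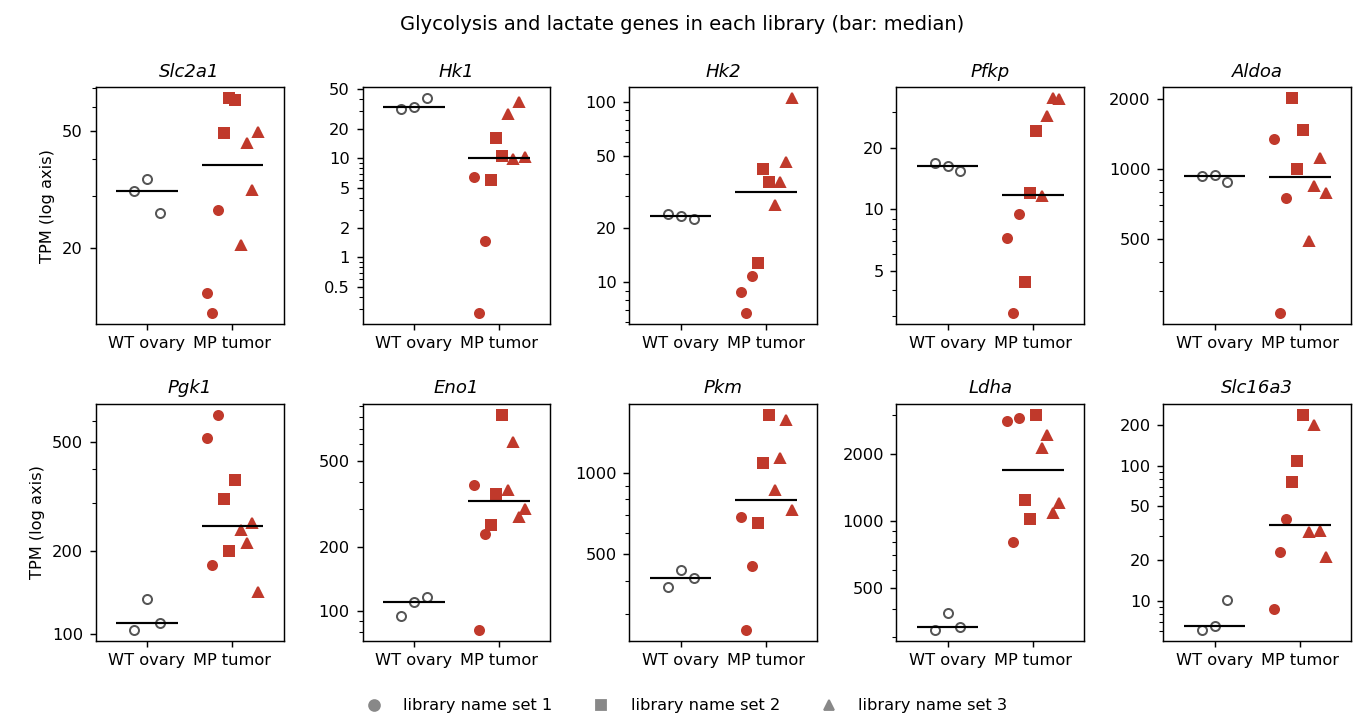
TPM (log axis) of each of the 10 genes in the 3 WT ovaries (open circles) and 10 MP tumors (filled, tumors 1 to 10 from left to right, with a symbol for each library name set), with bars at the group medians. Ldha and Pgk1 lay higher in each MP tumor than in any WT ovary, whereas the tumors spread to both sides of the WT ovaries for Slc2a1, Hk2, Pfkp and Aldoa.

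Slc2a1 (chromosome 4, from 119108711 to 119137983, GRCm38) encodes the glucose transporter that supplies basal uptake in most cells. Its level was 31.3, 34.3 and 26.2 TPM in WT ovaries 1, 2 and 3, and 12.0, 38.3 and 64.5 TPM (lowest, median and highest) in MP tumors. The groups overlapped, with 5 tumors above and 3 below each WT ovary. On the log2 scale the difference was 0.10 (SE 0.50, limma adjusted P = 0.902).

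Hexokinases trap glucose in the cell as glucose 6-phosphate. Hk1 (chromosome 10, from 62268855 to 62379908), the widely expressed form, was at 31.5, 33.4 and 40.7 TPM in WT ovaries and at 0.274, 10.1 and 37.4 TPM in MP tumors. In 9 of 10 tumors Hk1 was below each WT ovary, and MP tumor 9 lay among them. The lowest value rests on 13 reads in MP tumor 2. The log2 fold change of -1.96 had a standard error of 0.82 and did not pass the test over all libraries (limma adjusted P = 0.108), while limma-voom on the recovered reads, with 23.4% of all genes lower, called it (-2.15, adjusted P = 0.0397). Hk2 (chromosome 6, from 82725025 to 82774454), the form known from muscle and many tumors, was at 23.9, 23.3 and 22.4 TPM in WT ovaries and at 6.75, 31.6 and 105 TPM in MP tumors. The WT ovaries were close to one another, and 6 tumors lay above and 4 below them (log2 fold change 0.06 with SE 0.67, limma adjusted P = 0.954). The highest value came from the library labelled MP tumor 10.

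Pfkp (chromosome 13, from 6579768 to 6648777), the platelet form of phosphofructokinase, which commits glucose carbon to glycolysis, was at 16.98, 16.4 and 15.4 TPM in WT ovaries and at 3.09, 11.8 and 35.3 TPM in MP tumors. There were 4 tumors above and 6 below all WT ovaries (log2 fold change -0.29 with SE 0.64, limma adjusted P = 0.766). Aldoa (ENSMUSG00000030695, chromosome 7, from 126795234 to 126800751), the aldolase of muscle and most other tissues, was the most abundant member in WT ovaries, at 934, 947 and 877 TPM. It was at 241, 924 and 2015 TPM in MP tumors, with 5 above and 5 below the WT ovaries (log2 fold change -0.07 with SE 0.48, limma adjusted P = 0.929). The other Aldoa row (ENSMUSG00000114515, 799 bases long, from 126800790 to 126809108) reached 3.67 TPM in WT ovaries and 20.3 TPM in MP tumors, and did not pass the test (log2 fold change 0.61 with SE 0.80, limma adjusted P = 0.604). The sign of the difference for Slc2a1, Hk2, Pfkp and both Aldoa rows depended on the scaling or on which libraries were compared. The interval of the main difference ran from -0.97 to 1.17 for Slc2a1, from -1.36 to 1.49 for Hk2, from -1.67 to 1.08 for Pfkp and from -1.09 to 0.95 for Aldoa (95%, log2 scale), so changes within these limits were not excluded. The intervals are not adjusted for the number of genes tested and are not limits of detection.

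Pgk1, Eno1 and Pkm belong to the lower steps of the pathway, in which ATP is formed. Pgk1 (chromosome X, from 106187100 to 106203699), the phosphoglycerate kinase of somatic cells, rose from 104, 134 and 110 TPM in WT ovaries to 142, 247 and 629 TPM in MP tumors. All 10 tumors were above each WT ovary, and the lowest came from the library labelled MP tumor 10. This was a log2 fold change of 1.25 (SE 0.40, limma adjusted P = 0.0453). Over all genes tested, 3.02% were higher in every tumor than in every WT ovary.

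Eno1 (chromosome 4, from 150236721 to 150248879), the widely expressed enolase, rose from 95.7, 110.1 and 116 TPM to 82.1, 326 and 817 TPM. MP tumor 2 had the lowest value, below the WT ovaries, and the other 9 tumors were above them. Its log2 fold change was 1.55 (SE 0.49, limma adjusted P = 0.0434). Within name set 1 it was 0.85 and did not pass (limma adjusted P = 0.219, and 0.1995 with name set as a covariate). Pkm (chromosome 9, from 59656368 to 59679375), the pyruvate kinase of most tissues outside liver and red blood cells, was at 377, 439 and 410 TPM in WT ovaries and at 262, 799 and 1646 TPM in MP tumors. Again MP tumor 2 alone was below the WT ovaries and 9 tumors were above. The log2 fold change of 0.97 (standard error 0.45) did not pass the test (limma adjusted P = 0.150), and it passed without MP tumor 2 (1.15, adjusted P = 0.0401). The table counts genes, so the PKM1 and PKM2 splice forms cannot be told apart.

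Ldha (chromosome 7, from 46841475 to 46855627), the lactate dehydrogenase subunit that favors lactate formation, rose from 322, 385 and 332 TPM in WT ovaries to 800.4, 1686 and 3002 TPM in MP tumors. The lowest tumor, MP tumor 2, was above the highest WT ovary. The group means were 346 ± 33.96 TPM (SD, n = 3) and 1862 ± 879 TPM (SD, n = 10), and the log2 fold change was 2.27 (standard error 0.41, limma adjusted P = 0.00161). By mean TPM, Ldha stood behind Aldoa and Pkm in WT ovaries and ahead of both in MP tumors.

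Slc16a3 (chromosome 11, from 120948480 to 120960868) encodes MCT4, a carrier that exports lactate from glycolytic cells. It was the lowest of the 10 genes in WT ovaries, at 6.12, 6.53 and 10.2 TPM, and was at 8.71, 36.6 and 237 TPM in MP tumors. MP tumor 1 lay within the range of the WT ovaries and the other 9 tumors lay above it. The change on the log2 scale was 2.56 (SE 0.80, limma adjusted P = 0.0392). Within name set 1 it was 1.33 and did not pass (limma adjusted P = 0.0574, and 0.141 with name set as a covariate).

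The 4 calls were not equally firm. Ldha stayed called when any 1 of the 13 libraries was left out, with adjusted P values from 0.000742 to 0.0147. Leaving out any WT ovary ended the calls of Pgk1, Eno1 and Slc16a3, so that 1 row remained called. Among tumors, leaving out MP tumor 1, 3, 4, 6, 7 or 8 ended the call of Pgk1, MP tumor 1, 6, 7 or 8 that of Eno1, and MP tumor 3, 4 or 8 that of Slc16a3, with adjusted P values over all removals of up to 0.175, 0.166 and 0.154. Pgk1 and Eno1 were also lost with a pseudocount of 0.1 (adjusted P = 0.0533 and 0.0523) and without limma's trend and robust options (0.0537 and 0.0501), and these 2 with Slc16a3 without the filter on low values (0.0596, 0.0603 and 0.0573). Over single removals the log2 fold changes moved little, from 1.12 to 1.36 for Pgk1, from 1.40 to 1.77 for Eno1 and from 2.31 to 2.83 for Slc16a3.

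To set the changes beside the promoter letters that MYC and hypoxia-inducible factors are known to bind, the 300-base windows from RefSeq (GRCm38.p6) around the main transcription start are given for the 4 genes that rose and for Pkm, which did not pass the test. Each runs from 250 bases before to 50 after the start, 5′ to 3′ on the strand of the gene, and all 5 lie on the plus strand. Capitals mark ACGTG or GCGTG read on either strand. A CACGTG reads as ACGTG on both strands and so counts as 2 matches.

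Ldha, chr7:46845554-46845853: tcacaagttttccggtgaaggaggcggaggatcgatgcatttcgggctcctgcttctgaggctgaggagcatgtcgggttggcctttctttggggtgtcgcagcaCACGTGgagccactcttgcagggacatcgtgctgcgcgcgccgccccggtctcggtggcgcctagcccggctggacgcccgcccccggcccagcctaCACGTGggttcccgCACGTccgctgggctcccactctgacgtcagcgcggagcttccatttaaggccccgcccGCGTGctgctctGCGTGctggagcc

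Slc16a3, chr11:120948817-120949116: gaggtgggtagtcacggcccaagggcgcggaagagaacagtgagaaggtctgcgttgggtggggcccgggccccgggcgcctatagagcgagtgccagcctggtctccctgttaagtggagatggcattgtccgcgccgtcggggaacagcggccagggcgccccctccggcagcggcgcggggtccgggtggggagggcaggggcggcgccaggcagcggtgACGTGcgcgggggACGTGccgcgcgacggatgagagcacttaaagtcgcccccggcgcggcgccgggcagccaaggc

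Pgk1, chrX:106186850-106187149: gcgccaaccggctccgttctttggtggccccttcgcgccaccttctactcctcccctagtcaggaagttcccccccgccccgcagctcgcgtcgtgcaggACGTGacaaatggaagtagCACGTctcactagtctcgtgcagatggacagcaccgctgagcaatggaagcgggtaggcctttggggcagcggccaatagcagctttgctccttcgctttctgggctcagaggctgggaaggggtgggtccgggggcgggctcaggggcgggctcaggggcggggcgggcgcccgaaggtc

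Eno1, chr4:150236947-150237246: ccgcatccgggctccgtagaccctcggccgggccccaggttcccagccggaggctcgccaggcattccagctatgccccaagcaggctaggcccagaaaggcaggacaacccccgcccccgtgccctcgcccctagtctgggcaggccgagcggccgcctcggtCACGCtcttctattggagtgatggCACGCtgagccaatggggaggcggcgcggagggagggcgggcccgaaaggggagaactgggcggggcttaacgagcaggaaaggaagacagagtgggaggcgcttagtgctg

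Pkm, chr9:59656326-59656625: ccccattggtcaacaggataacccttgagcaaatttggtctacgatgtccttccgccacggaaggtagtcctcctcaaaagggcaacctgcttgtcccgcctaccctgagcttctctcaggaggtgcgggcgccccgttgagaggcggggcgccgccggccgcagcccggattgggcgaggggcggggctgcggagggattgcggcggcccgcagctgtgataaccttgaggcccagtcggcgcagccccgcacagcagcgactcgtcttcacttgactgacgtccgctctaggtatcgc

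The window of Ldha held 5 matches to ACGTG, 2 to GCGTG and 2 to CACGTG. Those of Slc16a3 and Pgk1 each held 2 matches to ACGTG, that of Eno1 held 2 to GCGTG, and that of Pkm held none. Windows at other starts differed: that of Pkm held 2 matches to ACGTG, and that of Ldha held 2 to GCGTG and 0 to ACGTG. For Hk1, whose main window held none, the other window held 2 to ACGTG and 3 to GCGTG. Among the main windows of the 10 genes, 6 held ACGTG, 4 held GCGTG and 1, that of Ldha, held CACGTG. Over all 17 windows of these genes, 9 held ACGTG, 8 GCGTG and 1 CACGTG. Of all 32851 windows of this length, 19.6% held ACGTG, 32.4% GCGTG and 7.15% CACGTG. A match describes the letters only, and binding was not measured in these samples.

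**Figure D2:**
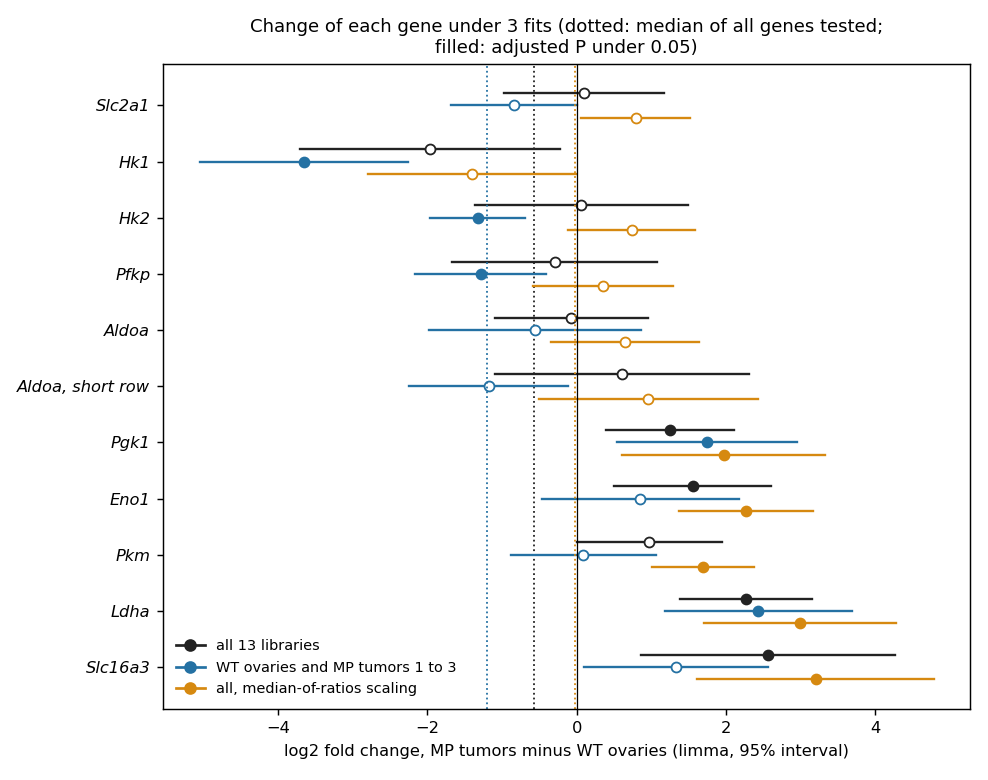
Log2 fold change of each row (MP tumors minus WT ovaries) with its 95% interval from limma over all 13 libraries, over WT ovaries with MP tumors 1 to 3, and over all libraries after median-of-ratios scaling, with filled points at an adjusted P under 0.05. The dotted lines mark the medians of all genes tested, at -0.58, -1.19 and -0.02, and Ldha and Pgk1 are filled in all 3 fits.

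Within name set 1, the only one with WT ovaries, MP tumors 1 to 3 were compared with the 3 WT ovaries. Ldha (log2 fold change 2.43 with SE 0.54, limma adjusted P = 0.00519) and Pgk1 (1.74, standard error 0.51, adjusted P = 0.0188) were higher. Hk1 (-3.65, standard error 0.60, adjusted P = 0.00119), Hk2 (-1.33, standard error 0.27, adjusted P = 0.00349) and Pfkp (-1.29, standard error 0.38, adjusted P = 0.0182) were lower. In this comparison 6.44% of all genes were higher and 57.3% were lower, and relative to the median of all genes Hk2 and Pfkp stood at -0.13 and -0.09, whereas Hk1 stood at -2.46. Eno1 (0.85, adjusted P = 0.219), Pkm (0.09, adjusted P = 0.865) and Slc16a3 (1.33, adjusted P = 0.0574) did not pass the test there, and without MP tumor 2 Eno1 was called as well (1.47, adjusted P = 0.00441). With the name set as a covariate over all libraries, Ldha and Pgk1 were higher and Hk1 and Hk2 lower, where 5.17% of all genes were higher and 49.4% lower.

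The tumors also differed among name sets, without any WT ovary to set beside the later ones. Hk2 lay between 6.75 and 10.8 TPM in MP tumors 1 to 3 and between 27.04 and 105 TPM in MP tumors 7 to 10. Pgk1 went the other way in mean level, at 442 TPM in MP tumors 1 to 3, 293 TPM in MP tumors 4 to 6 and 213 TPM in MP tumors 7 to 10. Slc16a3 averaged 24.04, 140.3 and 71.5 TPM in the same order. Differences between name sets were not tested.

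Related genes were compared as ratios within each library, in which the library's scaling cancels except for the pseudocount at low levels. The ratios below are of TPM, and the differences and tests are of log2 ratios of TPM + 1. Of 8 ratios compared, 4 differed between MP tumors and WT ovaries (2-sided exact permutation test over all choices of 3 among 13 libraries, adjusted over the 8 ratios). The ratio of Hk2 to Hk1 was 0.549 to 0.760 in WT ovaries and 0.970 (MP tumor 7), 3.04 (median) and 24.6 (MP tumor 2) in MP tumors. Hk1 was thus the more abundant hexokinase in all 3 WT ovaries and Hk2 in 9 of 10 tumors, and the ratio was higher in all 10 tumors than in any WT ovary. The difference on the log2 scale was 2.03 (exact P = 0.00699, adjusted P = 0.0420).

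Ldhb, the subunit that favors lactate use, showed the same exchange with Ldha. Its level was 520.2 to 576 TPM in WT ovaries and 63.8, 266 and 1079 TPM in MP tumors (log2 fold change -0.92, limma adjusted P = 0.396). The ratio of Ldha to Ldhb was 0.559 to 0.673 in WT ovaries and 1.07, 4.55 and 38.1 in MP tumors. Ldhb led in each WT ovary and Ldha led in each MP tumor, by least in MP tumors 4 and 5, which held the most Ldhb. The log2 difference was 3.19 (exact P = 0.0105, adjusted P = 0.0420).

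**Figure D3:**
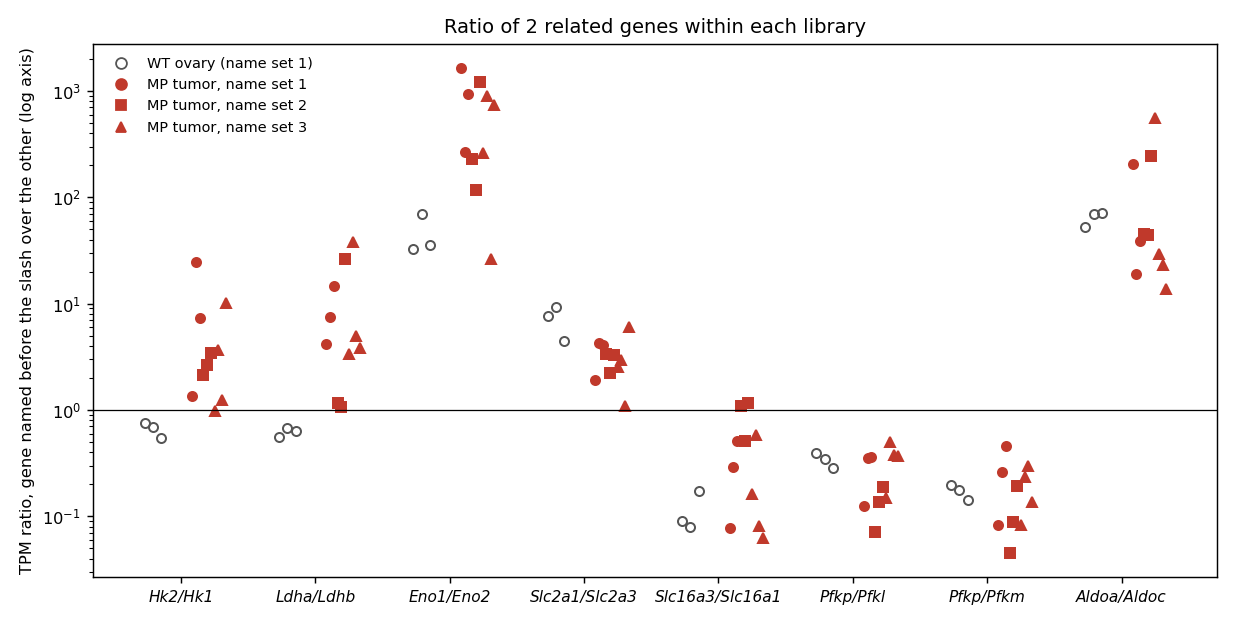
Ratio of TPM between 2 related genes (log axis) in each WT ovary (open) and MP tumor (filled, a symbol for each library name set), with a line at equal levels. For Hk2/Hk1 and Ldha/Ldhb, the WT ovaries lie below 1, and all MP tumors lie above the WT ovaries.

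Eno1 to Eno2, the neuronal enolase, rose in ratio in 9 of 10 tumors (log2 difference 2.28, exact P = 0.0175, adjusted P = 0.0420), and MP tumor 9, which had the most Eno2, was below the WT ovaries. Eno2 was at most 10.4 TPM, and with a pseudocount of 0.1 in place of 1 this difference was 2.94 and that of Hk2 to Hk1 was 2.31. Slc2a1 fell against Slc2a3, a glucose transporter of high affinity, in 9 of 10 tumors (log2 difference -1.09, exact P = 0.0210, adjusted P = 0.0420). Slc2a3 itself was at 3.66 to 5.94 TPM in WT ovaries and at 2.81, 11.3 and 28.7 TPM in MP tumors, and did not pass the test (log2 fold change 1.18, limma adjusted P = 0.163). No difference passed for Slc16a3 to Slc16a1, another lactate carrier (1.28, exact P = 0.217), Pfkp to Pfkl (-0.54, exact P = 0.339), Pfkp to Pfkm (-0.13, exact P = 0.83) or Aldoa to Aldoc (-0.25, exact P = 0.787).

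Among MP tumors 1 to 3 and the WT ovaries, the log2 differences were 2.33 for Hk2 to Hk1, 3.63 for Ldha to Ldhb, 2.33 for Eno1 to Eno2 and -1.02 for Slc2a1 to Slc2a3, where an exact test cannot give less than 0.1. All 4 adjusted P values were above 0.05 when any 1 WT ovary was left out (up to 0.121, 0.121, 0.152 and 0.182), with log2 differences from 1.83 to 2.20 for Hk2 to Hk1 and from 2.89 to 3.46 for Ldha to Ldhb over all single removals. With 2 WT ovaries and 10 tumors there are 66 arrangements, so the exact P cannot be below 0.0152 and 1 ratio alone at that value has an adjusted P of 0.121 over the 8 ratios, so these losses partly follow from the size of the design. The Hk2 to Hk1 call held without MP tumor 2, 4, 7, 9 or 10, the Ldha to Ldhb call without MP tumor 2, 4, 9 or 10, the Slc2a1 to Slc2a3 call without MP tumor 2, 9 or 10, and the Eno1 to Eno2 call without MP tumor 2 or 9, and each call was lost when any other tumor was left out (adjusted P of up to 0.0636, 0.0636, 0.0727 and 0.0727).

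Other enzymes of the pathway, and of routes that join or branch from it, went in both directions. Of 16 such enzymes tested, 2 rose, 1 fell and 13 did not pass, where 2.51% of all genes rose and 14.3% fell. At an unadjusted P under 0.05 the counts were also 2 and 1 (5.63% and 27.4% of all genes), and by limma-voom they were 4 and 1 (10.9% and 23.4%). Galk1, which brings galactose into the pathway, rose and was higher in 10 of 10 tumors, with means of 117 ± 6.28 TPM (SD, n = 3) and 485 ± 299 TPM (SD, n = 10) (log2 fold change 1.82, limma adjusted P = 0.0169). Eno3, the muscle enolase, rose as well (2.42, adjusted P = 0.0462), from at most 16.7 TPM in WT ovaries to 28.8, 63.9 and 1098 TPM in MP tumors, with the highest value in MP tumor 1. Bpgm, which makes the bisphosphoglycerate that regulates hemoglobin, fell (-2.01, adjusted P = 0.00617). The median log2 fold change of the list was 0.22. Tpi1, the most abundant of the list, was at 362 to 415 TPM in WT ovaries and at 217, 702 and 1152 TPM in MP tumors (0.74, adjusted P = 0.183).

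**Figure D4:**
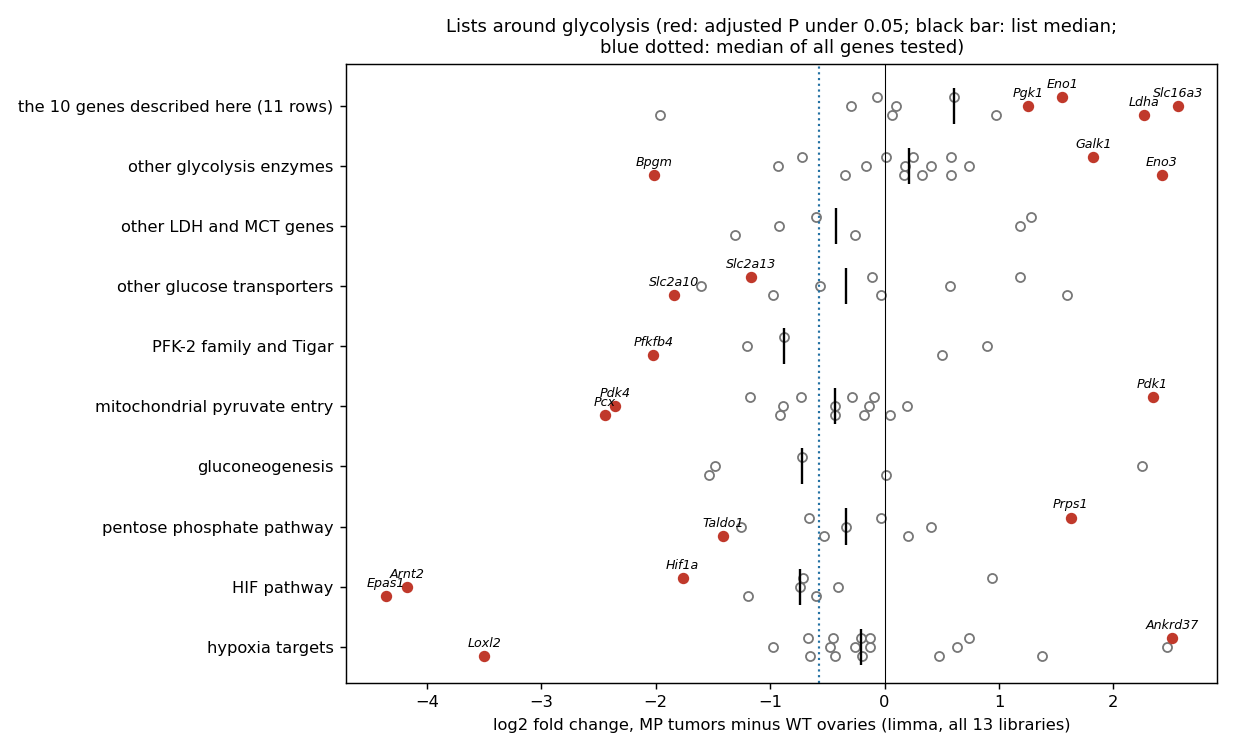
Log2 fold changes over all 13 libraries (limma, MP tumors minus WT ovaries) of the genes tested in 10 lists, with named red points at an adjusted P under 0.05, a black bar at each list's median and a blue dotted line at -0.58, the median of all genes tested. The 11 rows of the 10 genes described here have the highest list median, 0.61, and the hypoxia-inducible factor genes Epas1 and Arnt2 lie farthest to the left.

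Most genes that lead carbon to or from glycolysis did not pass the limma test. Of 10 other glucose transporters tested, none rose (0 at an unadjusted P under 0.05 and 1 by limma-voom) and 2 fell (4 and 3 by those criteria), namely Slc2a10 (-1.84, limma adjusted P = 0.0199) and Slc2a13 (-1.16, adjusted P = 0.00577). Of all genes, 14.3%, 27.4% and 23.4% were lower by limma, at an unadjusted P and by limma-voom, and 2.51%, 5.63% and 10.9% were higher, and the other counts of this paragraph are to be read against these shares. Of 6 other lactate dehydrogenase and monocarboxylate carrier genes, none passed the limma test in either direction, among them Bsg, the chaperone of lactate carriers (-0.26, adjusted P = 0.691), though 2 were higher at an unadjusted P under 0.05 and by limma-voom. Of 5 genes of the phosphofructokinase-2 family and Tigar, Pfkfb4, which sets the level of a phosphofructokinase activator, fell (-2.02, adjusted P = 0.0255), and this was the 1 call of the list. Of the 5, 0 were higher and 2 lower at an unadjusted P under 0.05, and 1 and 2 by limma-voom. Of 5 gluconeogenesis genes tested none passed by limma, at an unadjusted P under 0.05 or by limma-voom, and of 9 pentose phosphate genes Prps1 rose (1.63, adjusted P = 0.00719) and Taldo1, the transaldolase, fell (-1.41, adjusted P = 0.0406), against 1 higher and 2 lower at an unadjusted P and 1 and 1 by limma-voom. The Taldo1 call was lost with median-of-ratios scaling (adjusted P = 0.348).

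At the entry of pyruvate into mitochondria, 1 of 15 genes rose and 2 fell, where 2.51% of all genes rose and 14.3% fell, so the share that fell was near that of all genes. At an unadjusted P under 0.05, 1 was higher and 3 lower (5.63% and 27.4% of all genes), and by limma-voom 1 and 2 (10.9% and 23.4%). Pdk1, a kinase that switches pyruvate dehydrogenase off, rose from 18.5, 19.2 and 18.0 TPM in WT ovaries to 51.0, 104 and 154 TPM in MP tumors. All 10 tumors were above each WT ovary (log2 fold change 2.34 with SE 0.37, limma adjusted P = 0.000401), and the call held without any 1 library. Pdk4, another kinase of this family, fell (-2.36, adjusted P = 0.0278), as did Pcx, which carboxylates pyruvate to oxaloacetate (-2.44, adjusted P = 0.0388). Pdk4 was lower in 10 of 10 and Pcx in 9 of 10 tumors than in any WT ovary, where 16.4% of all genes were lower in every tumor.

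Among 9 genes of the hypoxia-inducible factor pathway, 3 fell and none rose by limma, where 14.3% of all genes fell. The counts were the same at an unadjusted P under 0.05 and by limma-voom, where 27.4% and 23.4% of all genes were lower. Epas1, which encodes HIF2A, fell by 4.36 on the log2 scale (limma adjusted P = 0.00363), with means of 131 ± 20.2 TPM (SD, n = 3) for WT ovaries and 9.78 ± 10.8 TPM (SD, n = 10) for MP tumors. Arnt2, a partner subunit, fell (-4.18, adjusted P = 0.00144), and Hif1a itself fell (-1.76, adjusted P = 0.0404), from 106 to 126 TPM in WT ovaries to 10.96, 33.6 and 119 TPM in MP tumors. HIF1A is known to be controlled mostly by protein stability, which RNA does not measure. Of 18 hypoxia targets outside glycolysis, Ankrd37 rose (2.51, adjusted P = 0.00560), Loxl2, a collagen-crosslinking oxidase, fell (-3.50, adjusted P = 0.0227) and 16 did not pass. At an unadjusted P under 0.05, 2 were higher and 1 lower, and by limma-voom 4 were higher and 1 lower, beside 5.63% and 10.9% of all genes higher.

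Of the genes named from these lists, Bpgm, Pdk1, Arnt2 and Epas1 stayed called when any 1 library was left out. Galk1, Eno3, Slc2a10, Pfkfb4, Pdk4, Pcx, Taldo1, Hif1a and Loxl2 were lost without any 1 of the WT ovaries, Slc2a13 and Ankrd37 without WT ovary 1, and Prps1 without WT ovary 3. Single tumors also ended the calls of Eno3 (MP tumor 3, 4, 6, 7, 8 or 10), Pcx (1, 3, 6 or 7), Taldo1 (4 or 8) and Hif1a (1, 3, 4, 7 or 8). The adjusted P values over these removals reached 0.172, for Taldo1.

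The members were also compared with these 18 targets across the 10 MP tumors. Each value was log2(TPM + 1) less the library's median, and the targets were averaged. None of 10 relations passed after adjustment, and 4 had a positive r. The highest was Pgk1 (Pearson r = 0.46, permutation P = 0.180, adjusted P = 0.751; Spearman rho = 0.49, permutation P = 0.156) and the lowest Hk2 (r = -0.65, permutation P = 0.0392, adjusted P = 0.392; rho = -0.65, permutation P = 0.0506). Without MP tumors 8 and 10, whose hypoxia means were farthest from the median, r was 0.19 for Pgk1 and -0.39 for Hk2. Ldha had an r of 0.05 (permutation P = 0.878, adjusted P = 0.878). After name-set means were subtracted, r was -0.03 for Pgk1, -0.46 for Hk2 and -0.49 for Ldha, and the sets of 3, 3 and 4 tumors are too small for a value within each. Without subtraction of the library median, 8 of 10 signs turned, and r was -0.17 for Pgk1, 0.60 for Hk2 and -0.34 for Ldha, so the direction of these relations depends on the centring.

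Markers of normal ovary moved with the comparison. Of 8 granulosa cell markers 7 fell, of 7 luteal and theca cell markers tested 6 fell, and of 8 oocyte markers 7 fell. The summed TPM of the luteal and theca list was 27183 to 32318 in WT ovaries and 12.6 to 825 in MP tumors, and that of the granulosa list was 3756 to 6811 and 19.3 to 2157. Zp2, Bmp15, Oosp1 and Nlrp5 of the oocyte list were below 1 TPM in each tumor. Endothelial (4 of 8) and fibroblast (3 of 8) markers fell too (8 and 6 of 8 both at an unadjusted P under 0.05 and by limma-voom, where 14.3%, 27.4% and 23.4% of all genes were lower by these criteria), with sums of 413 to 496 against 10.4 to 265 TPM and of 1441 to 2429 against 100.4 to 4738 TPM. Of 8 epithelial markers 3 fell and none rose, and 4 were lower by each of the other 2 criteria (249 to 281 against 9.80 to 1237 TPM), among them Cdh1 and Epcam. The immune list ran from 1015 to 3214 TPM in WT ovaries and from 492 to 3690 TPM in MP tumors. Of 8 immune markers tested, 1 fell and 0 rose by limma. At an unadjusted P under 0.05, 4 were lower and 1 higher (5.63% of all genes higher), and by limma-voom 3 and 1 (10.9%). The part of these cell types in the levels of the glycolysis genes was not tested.

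Muscle and red blood cell genes, whose cells use glycolysis heavily, were examined too. Muscle markers summed to 14.6 to 18.0 TPM in WT ovaries and 10.2, 84.3 and 1809 TPM in MP tumors, with the highest value in MP tumor 1, and of 7 tested only Ckm, the muscle creatine kinase, rose (4.85, limma adjusted P = 0.0235), where 2.51% of all genes rose. The count was also 1 at an unadjusted P under 0.05 and by limma-voom. Without MP tumor 1, Ldha (2.18, adjusted P = 0.00265) and Slc16a3 (2.83, adjusted P = 0.0162) stayed called, and Pgk1 (1.15, adjusted P = 0.0632) and Eno1 (1.52, adjusted P = 0.0643) did not. The part of muscle in these levels was not tested. Red blood cell markers summed to 226 to 432 TPM in WT ovaries and 451 to 6180 TPM in MP tumors, and of 7 tested 2, the beta-globin genes Hbb-bs and Hbb-bt, rose (2.37 and 2.42, adjusted P = 0.0254 and 0.0229). Of the 7, 4 were higher at an unadjusted P under 0.05 (5.63% of all genes) and 5 by limma-voom (10.9%). Pklr, the pyruvate kinase of red blood cells and liver, was below 1 TPM in each tumor. The part of red blood cells in the Ldha and Pgk1 levels was not tested.

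The 5 genes outside the set with the pattern most like the mean of the 10 members over the 10 MP tumors, among 9447 with a mean of at least 10 TPM, were Ercc1 (r = 0.95), Zcchc8 (r = 0.95), Brap (r = 0.94), Samd1 (r = 0.93) and Elavl1 (r = 0.93). The 10 points share their libraries and depths, and these values are a description.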

How the data were processed

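The authors deposited a table of TPM values per gene, named for featureCounts, with 1 column per library and no pooling. Per the labels, polyA libraries were read from 1 end at 76 bp. The submitters' processing notes name FastQC 0.11.5, Trimmomatic 0.36, STAR 2.5.3a, featureCounts 1.6.3 and the mouse build mm10 (GRCm38), whereas the extraction text names hg19, HTSeq and RPKM. TPM times gene length gave whole multiples of 1 step for 100% of values (within 0.01), from which reads were recovered. Strand use in counting is not given in the sources used here, and named copies of the members reached at most 2.43 TPM. No pair of libraries was a repeat (chi-square per degree of freedom of at least 25.8).

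Rows that reached 1 TPM in 3 or more libraries were tested as log2(TPM + 1) with limma 3.58.1 (trended, robust) in R 4.3.3, with Benjamini-Hochberg adjustment and a threshold of 0.05. This scale understates changes of low genes. The labels put each sample in its group, and no columns were left over (0). Samples were taken as separate animals, which the labels do not state outright, so P values measure the spread between these samples. Ratios were compared by exact permutation tests in SciPy 1.17.1, and correlations by 100000 permutations. The alternatives varied the pseudocount (0.1, 5), filter (none, 5 TPM), scaling, name set, replicate block, single libraries and limma options. Of these, 2 were chosen after seeing the data: omission of MP tumors 2 and 10 together, and name set 1 without MP tumor 2. The members, lists and tests were chosen with earlier results of these data known. Named list genes were up to 4 past the threshold with the largest statistic and the most abundant one. Of the glycolysis list, 1 gene is not reported here. Those given for comparison of ratios, and Pklr, were chosen by their relation to a member. On simulated data with 200 changed genes among 16953, limma recovered 48 of 50 at a log2 change of -2, 9 of 50 at -1, 9 of 50 at 1 and 50 of 50 at 2, and called 2 unchanged genes, so 2-fold changes were mostly missed. The simulation gave all genes and both groups 1 common spread and no difference between name sets. Detection in the real tumors can be lower, as Hk1 at -1.96 was not called (limma adjusted P = 0.108). Promoters are RefSeq windows. Figures were drawn with matplotlib 3.10.9.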

Additional observations from a re-analysis of the deposited data

Results flagged for a closer look

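Of 21 sets of values examined for a sample far from the others in its group, 1 stood out, where chance gives about 1 in 20 (1.05 of 21). Hk2 in the library labelled MP tumor 10 was at 105 TPM, beyond the other 9 MP tumors at 6.75 to 46.5 TPM. The gap to the nearest tumor was 0.597 of the whole range. This library was also the one with Trp53 above the WT ovaries, at 187 TPM. Without it, the log2 fold change of Hk2 went from 0.06 to -0.17 (limma adjusted P = 0.851), and without it and MP tumor 2 it was 0.02 (limma adjusted P = 0.982).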

How the results depend on the processing

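Counts and unadjusted directions moved with the scaling and with the libraries compared. Across all genes, the number higher in MP tumors went from 433 to 1276 with median-of-ratios scaling, 1904 with quantile normalization, 1992 after removal of the gene length trend, 1876 with limma-voom on recovered reads, 1112 within name set 1, 2171 there without MP tumor 2, 894 with name set as a covariate and 675 without MP tumors 2 and 10. The number lower went from 2463 to 1596 after removal of the length trend, 4045 with voom, 9902 within name set 1, 9766 there without MP tumor 2 and 8534 with the covariate. Of the glycolysis rows, 2 instead of 4 were higher with a pseudocount of 0.1 and without limma's trend and robust options (Ldha and Slc16a3), and within name set 1 and with the covariate (Pgk1 and Ldha), and 1, Ldha, without a filter. The number lower went from 0 to 1 with voom, 3 within name set 1, with or without MP tumor 2, and 2 with the covariate. For Pfkp the log2 fold change turned to 0.36 with median-of-ratios, 0.59 with quantile, 0.84 without the length trend and 0.0057 with voom. That of Aldoa turned to 0.65, 0.64 and 0.26 with median-of-ratios, length trend removed and voom, to 0.18 without MP tumors 2 and 10 and to 0.13 within name set 1 without MP tumor 2. The covariate fit repeats the log2 fold changes of name set 1, the only set with WT ovaries. In both, Slc2a1 turned to -0.84, Hk2 to -1.33 and the short Aldoa row to -1.18. Within name set 1 without MP tumor 2 they turned to -0.62, -1.17 and -0.73. The cause of these changes was not tested.

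The labels number WT ovaries and MP tumors 1 to 3 alike. They were taken as different animals, which the labels do not state outright. Their deviations from the group means did not go together (correlations of -0.05, 0.02 and -0.04). With the replicate number as a block over these 6 libraries, 1095 genes were higher and 9838 lower, 3 glycolysis rows were higher (Pgk1, Ldha and Slc16a3, the last at 1.33 with a limma adjusted P of 0.0130, against 0.0574 without the block) and 4 were lower (Hk1, Hk2, Pfkp and the short Aldoa row). The block leaves the log2 fold changes of name set 1 unchanged by design, so Slc2a1, Hk2 and the short Aldoa row stayed at -0.84, -1.33 and -1.18.

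Within name set 1 the ratios kept their signs but could not pass the exact test, at 2.33 for Hk2/Hk1, -1.02 for Slc2a1/Slc2a3, 2.33 for Eno1/Eno2 and 3.63 for Ldha/Ldhb, and Pfkp/Pfkm turned to 0.45. Without MP tumors 2 and 10, Eno1/Eno2 (2.37) and Ldha/Ldhb (3.21) no longer passed and Aldoa/Aldoc turned to 0.18. Correlations with the hypoxia mean changed sign without centring for Slc2a1 (0.59), Hk1 (0.73), Hk2 (0.60), Pfkp (0.49), Pgk1 (-0.17), Eno1 (0.28), Ldha (-0.34) and Slc16a3 (0.19), with name-set means subtracted for Hk1 (0.38), Pgk1 (-0.035), Pkm (-0.027) and Ldha (-0.49), and without MP tumors 8 and 10 for Pfkp (0.086), Pkm (-0.22) and Ldha (-0.13).

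Leaving out single libraries gave 94 to 635 genes higher and 1158 to 3264 lower, and 1 to 5 glycolysis rows higher. Log2 fold changes ran from -0.20 to 0.14 for Aldoa, from -0.17 to 0.25 for Hk2 and from -0.0079 to 0.25 for Slc2a1. The ratios ran from 2.09 to 2.57 for Eno1/Eno2, from 1.83 to 2.20 for Hk2/Hk1, from 2.89 to 3.46 for Ldha/Ldhb, from -0.30 to 0.044 for Pfkp/Pfkm and from -1.36 to -0.89 for Slc2a1/Slc2a3. Ldha stayed called under all alternatives run, with log2 fold changes from 2.17 to 3.04, and Hk1 stayed negative in all of them, at -3.65 to -0.96. Depth limits low values most in MP tumor 5, where 1 read in a gene of 1 kb is worth 0.790 TPM.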
